A study of Homo sapiens with 4 samples.

Results

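The genes described here handle the acid and lactate that glycolysis makes: the carbonic anhydrases CA2, CA9 and CA12, the lactate carriers SLC16A1 and SLC16A3, their surface partner BSG, and the lactate dehydrogenase subunit LDHB. They are 7 of the 58735 genes in the deposited table. The set was chosen by the counts of CA9, which were 0 in both control libraries and high in both hairpin libraries, and the others were added as genes of the same function. CA9 is therefore described with no test, and since the others share its contrast, nothing is read from how many of them pass one.

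The measurements are RNA-seq of total RNA from SUP-M2, an established human line of anaplastic large cell lymphoma that carries an active ALK kinase. Of the 4 libraries, 2 came from cells with a scrambled short hairpin RNA (shscramble, labelled control) and 2 from cells with a hairpin against GOLM1 (shGOLM1, labelled as a knockout). GOLM1 encodes a Golgi membrane protein, and the series title links it to apoptosis and BCL-XL. The labels give no time point and no further agent, and they do not say whether the shGOLM1 libraries used the same hairpin or whether replicates were separate cultures, so p-values reflect the scatter among 4 libraries, part or all of which may be technical.

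Carbonic anhydrases convert carbon dioxide and water into bicarbonate and a proton, and back. CA2 does so in the cytosol, while CA9 and CA12 sit in the plasma membrane with the catalytic site facing outward, where CA9 is widely used as a marker of hypoxia because the hypoxia-inducible factors (HIF) switch it on. Cells that run much glycolysis release lactate together with a proton through the monocarboxylate carriers MCT1 (SLC16A1) and MCT4 (SLC16A3), both of which need the glycoprotein basigin (BSG) to reach the cell surface. Lactate itself is made from pyruvate by lactate dehydrogenase, a tetramer of LDHA and LDHB subunits, of which LDHA is itself a HIF target.

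Promoter sequences were looked up in RefSeq (GRCh38.p14), where 5 of the 7 genes have an entry and CA2 and SLC16A1 do not. The 250 bases before each annotated start were searched on both strands for ACGTG and GCGTG, the core letters of the HIF element. Of 35116 RefSeq starts, 18.5% hold ACGTG, 32.2% hold GCGTG and 43.2% hold either. Shown are CA9, on which the set was built, CA12, the other membrane enzyme, and the only one of the 5 SLC16A3 starts with ACGTG, the last chosen after the matches were seen. Each is written 5′ to 3′ on the gene's strand, with the matches in capitals. They lie at chr9:35673678-35673927 (plus strand), chr15:63381847-63382096 (minus strand) and chr17:82228792-82229041 (plus strand).
CA9: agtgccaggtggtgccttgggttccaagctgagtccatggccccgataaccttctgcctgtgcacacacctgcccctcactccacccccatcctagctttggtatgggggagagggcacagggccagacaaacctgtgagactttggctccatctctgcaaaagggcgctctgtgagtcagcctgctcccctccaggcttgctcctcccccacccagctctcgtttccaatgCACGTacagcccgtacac
CA12: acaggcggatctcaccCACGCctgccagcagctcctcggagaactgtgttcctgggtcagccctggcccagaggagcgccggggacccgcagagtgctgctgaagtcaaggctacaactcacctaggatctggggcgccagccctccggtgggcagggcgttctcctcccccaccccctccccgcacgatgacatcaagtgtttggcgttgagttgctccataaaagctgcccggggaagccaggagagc
SLC16A3: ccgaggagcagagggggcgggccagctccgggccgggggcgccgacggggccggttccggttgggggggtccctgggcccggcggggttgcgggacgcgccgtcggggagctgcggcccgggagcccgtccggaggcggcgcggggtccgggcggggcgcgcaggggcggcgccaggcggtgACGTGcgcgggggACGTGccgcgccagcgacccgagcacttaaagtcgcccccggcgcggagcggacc
In CA9 a single ACGTG, read on the opposite strand, lies 18 to 14 bases before the start. CA12 holds no ACGTG in this window and a single GCGTG on the opposite strand, 234 to 230 bases before the start. The SLC16A3 window holds ACGTG at 68 to 64 and at 55 to 51 bases before the start. Of the 2 BSG starts the downstream one holds both motifs, including ACGTG on either strand of a single CACGTG, and the LDHB window holds neither. These are matches of letters only, and the libraries do not show which start was used.

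The libraries held 27544171 to 31972153 counts. GOLM1 itself was at 212 and 213 CPM (counts scaled by each library's total, adjusted with edgeR's TMM factors) in shscramble, against 69.6 and 69.5 CPM in the shGOLM1 libraries, which thus lay below both controls and close to each other. The shGOLM1 libraries were otherwise unlike each other: across the 14166 genes tested, log2 CPM of shscramble replicate 1 correlated at 0.989 with shscramble replicate 2, 0.947 with shGOLM1 replicate 1 and 0.854 with shGOLM1 replicate 2. Mitochondrially encoded genes took 2.38% and 2.24% of counts in shscramble, 1.95% in shGOLM1 replicate 1 and 0.456% (95% Wilson interval 0.453% to 0.458%) in replicate 2. That interval covers counting error within the library only, not variation between libraries. Levels are therefore given for each shGOLM1 library, and the part that these differences play in the results was not tested.

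CA9 (ENSG00000107159, chromosome 9, 35673856 to 35681159, plus strand, GRCh38) had 0 counts in both shscramble libraries, 1875 counts in shGOLM1 replicate 1 and 8878 in replicate 2. Where no read was counted up to 3 could have been missed, a floor of 0.0919 and 0.0902 CPM in the shscramble libraries that covers counting error only. The shGOLM1 libraries stood at 54.1 and 390 CPM. Set against that floor per library, CA9 was at least 2438-fold higher over the pair, at least 594-fold in replicate 1 alone and at least 4282-fold in replicate 2 alone. Each shGOLM1 library was far above the floor, and replicate 2 was 7.21-fold above replicate 1. More cells with CA9 RNA and more CA9 RNA per cell cannot be told apart in bulk RNA.

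Among all genes without a count in shscramble, CA9 had the highest CPM in each shGOLM1 library. CA9 was chosen by these same counts, so the rank is a description only. The next gene was ARHGDIB, expressed mainly in blood cells, at 30 CPM in replicate 1, and TREM1, a receptor of myeloid cells, at 52.9 CPM in replicate 2. Of the genes without a count in shscramble, 2708 had a count in replicate 1, 2167 in replicate 2 and 795 in both. At least 10 counts were reached by 193 in replicate 1, 382 in replicate 2 and 61 in both. Per length, on the FPKM scale (reads per kilobase of gene and library size), CA9 stood at 31.5 FPKM in replicate 1, rank 1165 among all genes, and at 227 FPKM in replicate 2, rank 228.

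The first exons of CA9 lie against another gene. ARHGEF39, on the opposite strand, shares 643 exonic bases with CA9, which is 38.5% of the CA9 exonic length in GENCODE 29, and whether the counting used strand could not be read from the labels or headers. ARHGEF39 had 1201 and 1094 counts in shscramble, against 704 in shGOLM1 replicate 1 and 540 in replicate 2. The libraries with the most ARHGEF39 counts had none for CA9, and the library with the most CA9 counts had the fewest for ARHGEF39. How reads in the shared bases were counted, and their part in the CA9 counts, was not tested.

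**Figure D1:**
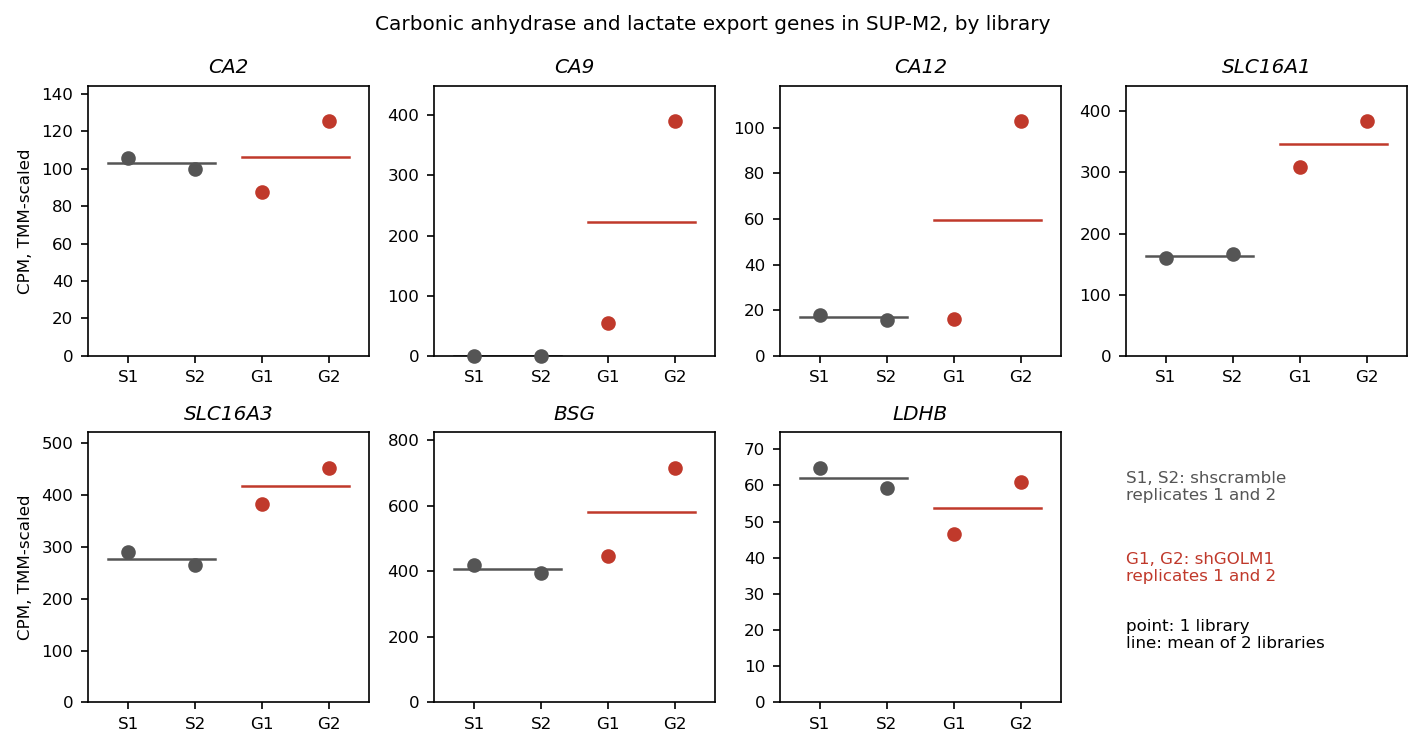
CPM over TMM-scaled totals (y axis, linear, starting at 0) of the 7 genes in each library, with shscramble replicates as S1 and S2 and shGOLM1 replicates as G1 and G2; points are libraries and lines are means of 2 libraries. CA9 is at 0 in shscramble but reaches 54.1 and 390 CPM in shGOLM1, SLC16A1, SLC16A3 and BSG are above both shscramble libraries in both shGOLM1 libraries, and CA12 stands out only in G2.

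CA12 (ENSG00000074410, chromosome 15, 63321378 to 63382161, minus strand) was at 18.1 and 15.9 CPM in shscramble, 16.1 CPM in shGOLM1 replicate 1 and 103 CPM in replicate 2. Replicate 1 lay between the shscramble libraries, so the groups overlapped, while replicate 2 was 6.06-fold above the shscramble mean. The log2 difference over the pair was 1.81 (SE 0.92; edgeR adjusted p 0.484), and without replicate 2 it was -0.094, so the difference over the pair rests on that library.

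CA2 (ENSG00000104267, chromosome 8, 85463852 to 85481493, plus strand) was at 106 and 99.8 CPM in shscramble, against 87.5 CPM in shGOLM1 replicate 1 and 125 CPM in replicate 2. Of the shGOLM1 libraries one lay below and the other above both controls, and the log2 difference over the pair was 0.05 (SE 0.32; edgeR adjusted p 0.961). Scaled by library totals alone, both shGOLM1 libraries lay below both controls, at 98.2 and 104 against 108 and 105 CPM, a gap smaller than the distance between the shGOLM1 libraries. No direction is given for CA2.

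The makeup of the carbonic anhydrase transcripts was compared per length, on the deposited FPKM scale. It divides by all annotated exonic bases: 2123 for CA2, 1670 for CA9 and 7313 for CA12. The transcripts in use were not determined, so the shares depend on these lengths. CA2, CA9 and CA12 summed to 51.8 and 48.6 FPKM in shscramble, 73.7 FPKM in shGOLM1 replicate 1 and 298 FPKM in replicate 2. In shscramble nearly all of this was the cytosolic enzyme: CA2 made up 95.3% and 95.6%. In shGOLM1 the membrane enzymes CA9 and CA12 together reached 45.6% in replicate 1 and 80.7% in replicate 2. Their shscramble share was 4.72% and 4.42%, all of it CA12. CA9 stood at 0.786 times the level of CA2 in replicate 1 and at 3.95 times in replicate 2. The ratio of CA9 to CA12 was closer between the libraries, at 14.7 and 16.6, even though each gene differed over 6-fold between them. These shares contain CA9 and so follow in part from how the set was chosen.

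**Figure D2:**
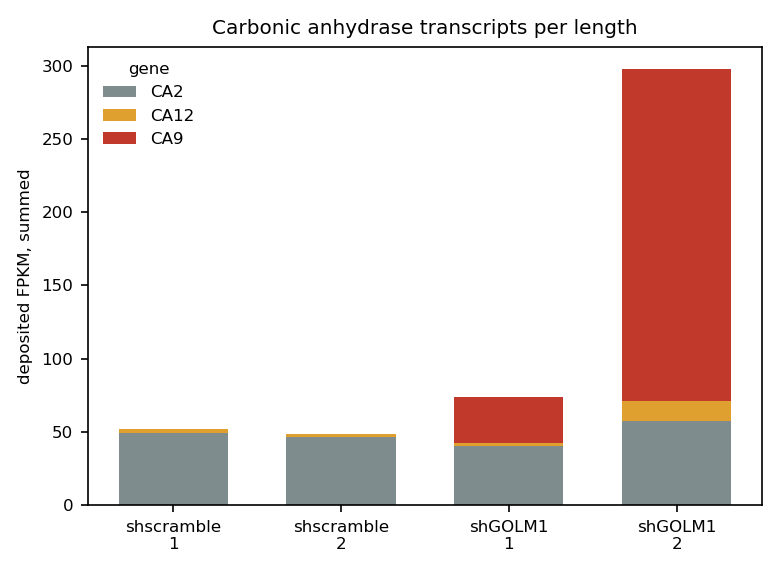
Deposited FPKM of CA2, CA12 and CA9, stacked (y axis, linear, starting at 0), in each of the 4 libraries. The CA2 segment is 49.4, 46.5, 40 and 57.3 FPKM from left to right, while the CA9 segment is absent in shscramble and 31.5 and 227 FPKM in shGOLM1.

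For both lactate carriers, each shGOLM1 library lay above each shscramble library, though neither difference passed the test over the pair. SLC16A1, which encodes the widely expressed carrier MCT1 (ENSG00000155380, chromosome 1, 112911847 to 112957013, minus strand), was at 160 and 166 CPM in shscramble, against 309 CPM in shGOLM1 replicate 1 and 384 CPM in replicate 2. That was 1.89-fold and 2.35-fold the shscramble mean, a gap wider than the distance between replicates of either group. The log2 difference was 1.09 (SE 0.30), and edgeR's quasi-likelihood test gave an unadjusted p of 0.0185 and, adjusted over all genes tested by Benjamini-Hochberg, a p of 0.42. In the authors' deposited table it is 1.06, adjusted p 0.353.

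SLC16A3, which encodes the export carrier MCT4 of glycolytic tissues (ENSG00000141526, chromosome 17, 82228397 to 82261129, plus strand), was at 290 and 265 CPM in shscramble, against 384 CPM in shGOLM1 replicate 1 and 453 CPM in replicate 2. The groups did not overlap, and the shGOLM1 libraries were 1.38-fold and 1.63-fold the shscramble mean. The log2 difference was 0.59 (SE 0.30; edgeR adjusted p 0.483). Scaling by library totals alone kept both carriers above both controls in both libraries, with the order of the shGOLM1 libraries turned: SLC16A1 at 347 and 317 CPM and SLC16A3 at 431 and 375 CPM in replicates 1 and 2. CSNK1D, on the opposite strand, shares 5.36% of the SLC16A3 exonic bases and had 5120 and 5126 counts in shscramble, against 4687 and 3350 in shGOLM1. For SLC16A1 the corresponding overlap, with SLC16A1-AS1, is 3.29%, and that gene had 150 counts or fewer in each library.

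BSG (ENSG00000172270, chromosome 19, 571277 to 583493, plus strand), the partner that brings both carriers to the membrane, was at 418 and 393 CPM in shscramble, 445 CPM in shGOLM1 replicate 1 and 716 CPM in replicate 2. Both shGOLM1 libraries were above both controls, but replicate 1 was only 1.10-fold the shscramble mean, against 1.77-fold in replicate 2. The log2 difference over the pair was 0.52 (SE 0.38; edgeR adjusted p 0.59), and without replicate 2 it was 0.12.

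The balance within the export system was read per length. FPKM divides by all annotated exonic bases of a gene, 8995 for SLC16A3 and 5312 for SLC16A1, and the transcripts in use were not determined. Which gene is higher depends on that length: in CPM, SLC16A3 was above SLC16A1 in every library. In FPKM they stood level in shscramble, at 29.9 for SLC16A1 against 31.9 for SLC16A3 in replicate 1 and 31 against 29.2 in replicate 2. The order thus changed between the libraries. In shGOLM1 SLC16A1 was the higher of them on this scale in both libraries, at 56.6 against 41.5 and 70.1 against 48.9 FPKM. The ratio of SLC16A1 to SLC16A3 was 0.937 and 1.06 in shscramble and 1.36 and 1.43 in shGOLM1, which does not depend on the scaling of the libraries. The groups did not overlap in this ratio, though an exact two-sided permutation test of 2 against 2 libraries cannot give a p below 0.333. On the same scale BSG exceeded the summed carriers in every library, by 1.76 and 1.70 times in shscramble and by 1.16 and 1.54 times in shGOLM1. Both shGOLM1 ratios thus lay below both controls, replicate 1 the furthest.

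**Figure D3:**
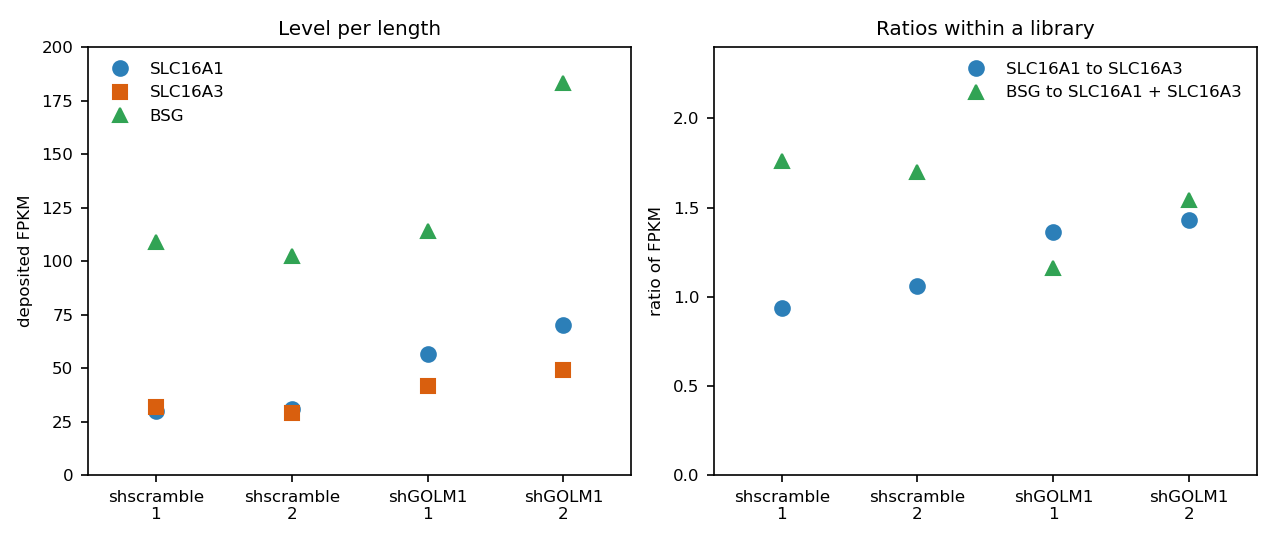
Left, deposited FPKM of SLC16A1, SLC16A3 and BSG in each library; right, the ratio of SLC16A1 to SLC16A3 and of BSG to their sum within each library, both on linear axes starting at 0. The SLC16A1 to SLC16A3 ratio is 0.937 and 1.06 in shscramble and 1.36 and 1.43 in shGOLM1, and the BSG ratio is lowest, at 1.16, in shGOLM1 replicate 1.

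LDHB (ENSG00000111716, chromosome 12, 21635342 to 21757857, minus strand), the dehydrogenase subunit favoured by tissues that use lactate, was at 64.9 and 59.4 CPM in shscramble, against 46.5 CPM in shGOLM1 replicate 1 and 61 CPM in replicate 2. Replicate 1 lay below both controls and replicate 2 between them, and the log2 difference was -0.21 (SE 0.30; edgeR adjusted p 0.78). Scaled by library totals alone, both shGOLM1 libraries lay below both controls, at 52.2 and 50.4 against 66.2 and 62.5 CPM, so whether the groups overlap depends on the scaling. The gene AC010197.2 shares 33.4% of the LDHB exonic bases on the same strand and had at most 7 counts in a library, and the 3 pseudogenes named after LDHB had 0 counts.

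LDHA, the subunit that makes lactate from pyruvate, was by far the higher of the pair per length. It was at 539 and 521 FPKM in shscramble, against 460 and 555 FPKM in shGOLM1, and the ratio of LDHA to LDHB was 25 and 26.4 in shscramble and 30.3 and 28 in shGOLM1. LDHB made up 3.84% and 3.65% of the summed transcripts in shscramble and 3.19% and 3.45% in shGOLM1. The ratio was thus higher in both shGOLM1 libraries, while LDHA itself lay on either side of the controls. LDHA was named after its values were seen, as the other subunit of the enzyme.

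The order of levels per length rests on the same annotated exonic lengths. BSG was first and CA12 and CA9 last in both shscramble libraries, with CA2 next to BSG and LDHB next to CA12. SLC16A1 and SLC16A3, in the middle, changed places between these replicates. In shGOLM1 replicate 2, CA9 was first and BSG next, while in replicate 1 BSG was first and CA9 lay between CA2 and LDHB. CA12 was last in both shGOLM1 libraries.

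None of the 6 genes other than CA9 passed edgeR's quasi-likelihood test at an adjusted p of 0.05, with adjusted p from 0.42 to 0.961. Neither did any other gene: 0% of the 14166 genes tested were called. GOLM1, the targeted gene, was not called either, at a log2 difference of -1.61 (SE 0.27) and an edgeR adjusted p of 0.42. Before adjustment 1668 genes had a p under 0.05, of the 6 only SLC16A1, and DESeq2 called 554 genes, of the 6 none. Of the 6, 3 lay in both shGOLM1 libraries above both controls, against 25.2% of all genes tested, and 0 lay lower, against 26.5%. Scaled by library totals alone, CA2 and LDHB lay lower in both, so the count of lower genes depends on the scaling. With so few genes these counts are a description only.

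Tested against the shscramble pair, each shGOLM1 library alone gives many calls, because the fit then takes its spread from the shscramble pair and assumes that the lone library varies likewise. It compares libraries, not conditions. With replicate 1 alone, SLC16A1 and SLC16A3 were called higher, at log2 differences of 0.91 and 0.45 and adjusted p of 8.67e-07 and 0.00286 in edgeR, where 20.4% of all genes were called higher. LDHB was called lower, at -0.44 and an adjusted p of 0.00722, where 24.1% of all genes were. With replicate 2 alone, CA12, SLC16A1, SLC16A3 and BSG were called higher, at log2 differences of 2.55, 1.18, 0.66 and 0.77 and adjusted p from 5.95e-11 to 6.15e-05, where 33.3% of all genes were called higher and 34.1% lower. Both fits share the shscramble libraries.

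The rest of the carbonic anhydrase family gave low levels. Of 12 further members of the family, 5 passed the filter on low counts, 0 were called, and their median log2 difference was 1.04, beside 0.05 for all genes tested. Against the shscramble mean, their median was 0.47 in shGOLM1 replicate 1 and 1.54 in replicate 2. Of these 5, 4 lay higher in both shGOLM1 libraries, against 25.2% of all genes tested, and 0 lower, against 26.5%. Among the higher, CA14 and CA3, at 15 and 8 and at 12 and 10 counts in shscramble, needed a shGOLM1 library to pass the filter. The filter thus leans towards this direction for them, and the median and the count of higher genes include them. CA13, CA11 and CA5B, which did not need one, had log2 differences of 0.59, 1.04 and 0.57. CA13, a cytosolic enzyme, was at 13.9 and 13 CPM in shscramble, against 22.6 and 17.8 CPM in shGOLM1. CA11, a related protein without catalytic activity, was at 2.91 and 3.43 against 3.78 and 9.31 CPM. CA5B, the mitochondrial form, was at 3.89 and 4.45 against 3.69 and 8.74 CPM, where replicate 1 lay below both controls.

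Among the other SLC16 genes and lactate-handling partners, the shGOLM1 libraries differed from each other. Of 17 genes, 8 passed the filter and 0 were called, with 1 higher in both libraries, against 25.2% of all genes tested, and 3 lower, against 26.5%. Their median log2 difference was -0.32 over the pair, 0.24 with shGOLM1 replicate 1 alone and -2.03 with replicate 2 alone. The 1 higher was SLC16A4, at 7 and 12 counts in shscramble against 17 and 36, which needed a shGOLM1 library to pass the filter. NPTN, a relative of BSG, was at 59 and 50.5 CPM in shscramble, against 38.7 and 28.5 CPM in shGOLM1. SLC16A9 was at 19.1 and 23.9 against 14.5 and 3.08 CPM, and SLC16A14 at 41.3 and 41.1 against 36 and 9.62 CPM. SLC16A13 went opposite ways, at 2.82 and 2.38 CPM in shscramble, 9 CPM in shGOLM1 replicate 1 and 0.615 CPM in replicate 2. SLC16A7, which encodes the high-affinity carrier MCT2 and was named after its values were seen, was at 104 and 124 CPM in shscramble, 137 CPM in replicate 1 and 26 CPM in replicate 2.

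Around pyruvate, 14 of 19 genes passed the filter, 0 were called, and 5 lay higher in both shGOLM1 libraries (against 25.2% of all genes tested) and 5 lower (against 26.5%). The median log2 difference was 0.23 over the pair, 0.0011 in replicate 1 and 0.35 in replicate 2. PDK1, the kinase that shuts off pyruvate dehydrogenase, was at 14.1 and 13.9 CPM in shscramble, against 44.6 CPM in shGOLM1 replicate 1 and 223 CPM in replicate 2. That library order is the one seen for CA9, with an unadjusted p of 0.0162 and an adjusted p of 0.42 in edgeR. DLAT and DLD, subunits of the pyruvate dehydrogenase complex, lay lower in both libraries: DLAT at 59.9 and 60.4 against 35.3 and 23.2 CPM, and DLD at 186 and 182 against 110 and 77.7 CPM. LDHD, a mitochondrial D-lactate dehydrogenase, was at 0.858 and 0.421 against 3.49 and 4.83 CPM.

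Of 21 bicarbonate carriers and sodium-proton exchangers, 15 passed the filter and 0 were called, with 5 higher in both shGOLM1 libraries (against 25.2% of all genes tested) and 2 lower (against 26.5%). The median log2 difference of 0.06 over the pair joins medians of opposite sign, 0.40 in replicate 1 and -0.59 in replicate 2. Of the 5 higher, SLC9A7 and SLC9B1 passed the filter only through shGOLM1, at 2 and 0 and at 0 and 5 counts in shscramble. Their shGOLM1 counts were 24 and 55 and 10 and 11, so the filter fixed their direction. SLC4A5, at 8 and 14 against 19 and 18 counts, also needed a shGOLM1 library to pass. SLC4A4, the sodium-bicarbonate cotransporter NBCe1, was at 27.2 and 25.1 CPM in shscramble, against 3 and 1.93 CPM in shGOLM1, a log2 difference of -3.40 (SE 0.43) with an unadjusted p of 0.000929 and an adjusted p of 0.42 in edgeR. Both shGOLM1 libraries were far below both controls and close to each other, unlike CA9. The exchanger SLC9A3 was at 1.29 and 1.23 against 2.91 and 11.9 CPM, and SLC9A5 at 4.81 and 5.62 against 5.94 and 28.3 CPM, each highest in replicate 2. SLC9A4 was at 1.53 and 1.26 against 0.952 and 0.308 CPM.

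For the HIF subunits and their regulators, 8 of 11 genes passed the filter and 0 were called; 4 lay higher in both shGOLM1 libraries (against 25.2% of all genes tested) and 0 lower (against 26.5%). The median log2 difference was 0.53 over the pair, 0.42 in replicate 1 and 0.18 in replicate 2. EPAS1, which encodes HIF-2 alpha, was at 24.7 and 25.6 CPM in shscramble, against 60.3 and 37.1 CPM in shGOLM1. ARNT, the shared partner of the alpha subunits, was at 68.5 and 75.2 against 90.1 and 151 CPM, and CITED2, a HIF target that competes with HIF for its coactivators, at 48.1 and 50.5 against 70.7 and 138 CPM. EGLN2, an oxygen-dependent prolyl hydroxylase, was at 1.29 and 2.65 against 3.89 and 5.49 CPM. HIF1A, named after its values were seen, was at 375 and 426 CPM in shscramble, 444 CPM in replicate 1 and 148 CPM in replicate 2. EGLN3, another prolyl hydroxylase that HIF induces, had 0 counts in all 4 libraries, as did HIF3A. These are RNA levels only: HIF protein was not measured, and the part of HIF in the CA9 counts was not tested.

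**Figure D4:**
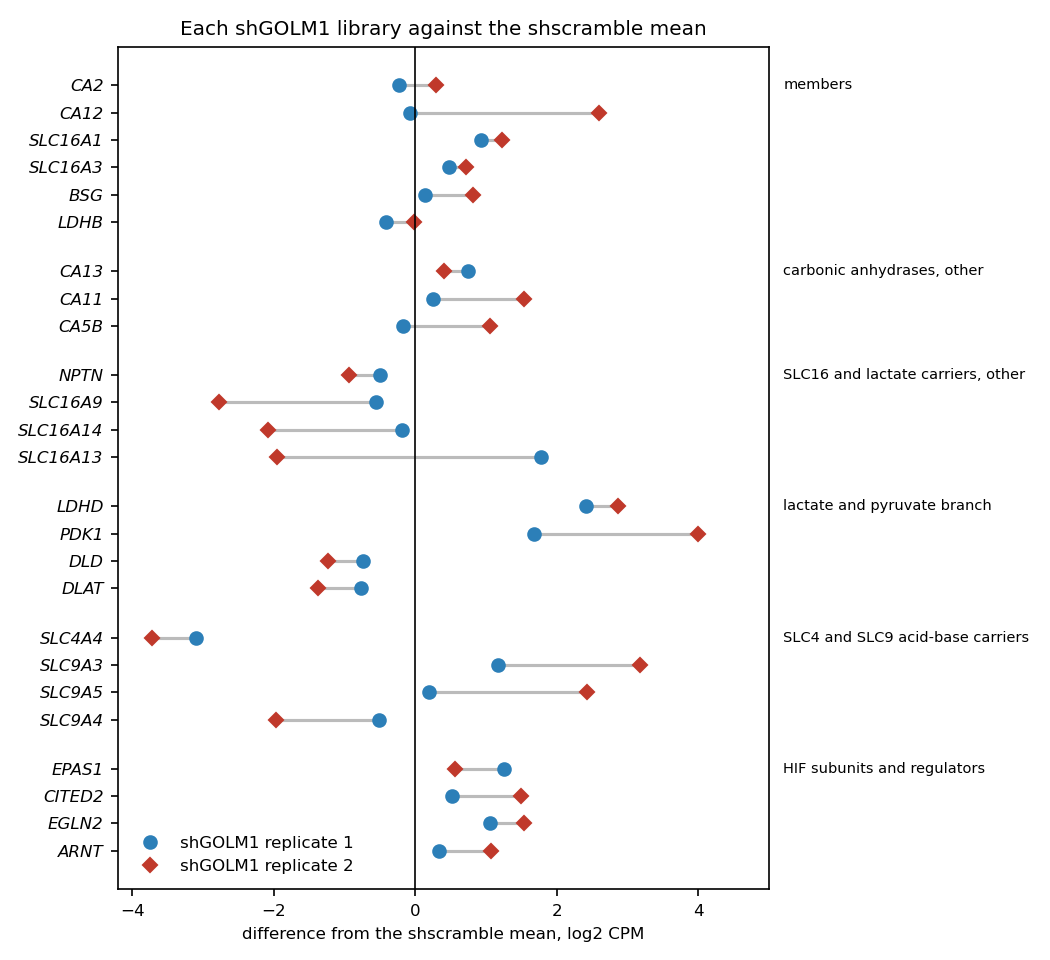
Difference of each shGOLM1 library from the mean of the shscramble libraries in log2 CPM (x axis; circles, replicate 1; diamonds, replicate 2) for the 6 genes other than CA9 and for the named genes of each list. SLC16A1 and SLC16A3 lie to the right in both libraries at 0.92 and 1.23 and at 0.47 and 0.71, SLC4A4 lies far to the left in both, and CA12, at -0.07 and 2.60, differs between the libraries.

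The genes most like each of the 7 in pattern were those with the smallest Euclidean distance over the 4 libraries, in log2 CPM relative to the shscramble mean, among 9680 protein-coding genes with at least 5 CPM in a library. For CA9 they were ARHGDIB, ADAMTS2, TREM1, MAGEH1 and DPYSL3, at distances of 3.5 to 5.81. ADAMTS2, at 0.184 and 0 CPM in shscramble and 21 and 84.3 CPM in shGOLM1, shared the order of the libraries at a lower level. For the other genes the nearest patterns were closer. For CA12 they were HERPUD1 (distance 0.10) and OSER1 (0.11), for SLC16A1 MAMDC4 (0.04) and AGPAT4 (0.05), and for SLC16A3 ACTR3C (0.05). For BSG they were RHOA (0.02) and CEP85L (0.04), for LDHB CAPZA2 (0.03) and EBP (0.04), and for CA2 the glycolytic enzyme PGAM1 (0.01) and DVL1 (0.04).

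The labelled cell type was checked on marker genes. All 12 markers of ALK-positive anaplastic large cell lymphoma were at 1 CPM or more in every library, but their levels differed, with 4 higher (against 25.2% of all genes tested) and 2 lower (against 26.5%) in both shGOLM1 libraries. ALK was at 340 and 316 CPM in shscramble, against 327 and 170 CPM in shGOLM1. TNFRSF8, which encodes the defining surface antigen CD30, was at 634 and 614 against 539 and 88.4 CPM. The cytotoxic granule genes went different ways, PRF1 from 2.91 and 2.71 to 621 and 145 CPM and GZMB from 118 and 86.3 CPM to 149 CPM in replicate 1 and 20.4 CPM in replicate 2. SERPINA1, at 574 and 556 against 689 and 3226 CPM, and CLU, at 122 and 114 against 188 and 1425 CPM, were highest in replicate 2. Of 12 general blood cell markers, 9 reached 1 CPM in each shscramble library and 10 in each shGOLM1 library. Of the 10 tested, 4 lay higher in both shGOLM1 libraries and 0 lower, against the same shares. ARHGDIB, at 0 counts in shscramble, passed the filter only through shGOLM1. LAPTM5 was at 1.23 and 1.41 against 74.6 and 59 CPM, and IKZF1 at 181 and 212 against 247 and 49.3 CPM. Of 12 T cell markers 5 reached 1 CPM in each library, summing to 222 and 213 CPM in shscramble and 360 and 493 CPM in shGOLM1. Of the 6 tested, 4 lay higher in both shGOLM1 libraries and 0 lower, against the same shares, with a median log2 difference of 1.09. CD4 was at 182 and 180 against 307 and 380 CPM, CD247 at 29.4 and 24.8 against 35.1 and 87.6 CPM and TRAC at 5.98 and 3.19 against 10.7 and 12.3 CPM, while CD3E, CD3G and TRBC1 were at or near 0 throughout. Markers of red cells, known to be rich in carbonic anhydrase, were near 0: the 8 erythroid markers summed to 0 CPM in shscramble and to 0.404 and 1.23 CPM in shGOLM1. HBG2 had 0 and 0 counts in shscramble against 14 and 20, ALAS2 had 8 counts in shGOLM1 replicate 2 only, and HBA1 and HBB had 0 in all libraries. The 8 epithelial markers summed to 0.398 and 0.601 CPM in shscramble and to 0.606 and 3.16 CPM in shGOLM1. KRT8 was at 10 and 12 counts against 13 and 54 and KRT18 at 3 and 7 against 7 and 18, while KRT5, KRT7, KRT14 and KRT19 had 0 counts in all libraries. The 6 fibroblast markers summed to 0.276 and 0.902 against 2.16 and 2.20 CPM, with LUM at 0 and 0 against 32 and 39 counts. The 6 B cell markers summed to at most 0.659 CPM. Of 7 myeloid markers only CSF1R reached 1 CPM, at 235 and 242 against 310 and 231 CPM, with CSF3R at 0 counts in all libraries.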

How the data were processed

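RNA was extracted with a column kit and made into libraries with a SMARTER mRNA kit, per the labels' protocols. The deposited counts are raw whole reads for each gene, per the file headers. FPKM values were also deposited by the authors, as were a mean signal per group, log2 fold changes and p-values from their own comparison. For aligner, counting tool and strand setting: not given in the sources used here. Mouse builds stand in the submitters' processing notes, but 58724 of the 58735 human gene identifiers have the start and end of GENCODE 29 on GRCh38. For the 7 genes FPKM divides by all annotated exonic bases. It was used only to compare levels between genes.

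Counts were tested with edgeR 4.0.16 (R 4.3.3, limma 3.58.1): quasi-likelihood, TMM, filterByExpr, no covariate, two-sided, Benjamini-Hochberg over 14166 genes, threshold 0.05. SE is the log2 difference over the square root of F. Log2 CPM uses a prior count of 2. Groups come from sample titles. The test was also run on simulated data, with the outcome not given here. The genes, lists and tests were chosen with earlier results of these data known. Named genes are the 7, GOLM1, up to 4 per list by smallest p with a mean of at least 1 CPM, and the nearest patterns (5 for CA9, 2 for each other gene, not all of them reported here). SLC16A7, LDHA, HIF1A, EGLN3, HIF3A, overlapping genes and markers were named after their values were seen. Alternatives were other size factors, library totals, other filters, DESeq2 1.42.0, limma-voom, a replicate block and each library left out. Figures were drawn with matplotlib 3.10.9.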

Additional observations from a re-analysis of the deposited data

How the results depend on the processing

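SLC16A1, SLC16A3 and BSG kept a positive and LDHB a negative log2 difference under all 11 alternatives run. Only with a single shGOLM1 library did any of the 6 genes pass the threshold: 4 without shGOLM1 replicate 1 and 3 without shGOLM1 replicate 2, against 0 without either shscramble library. Of all genes in the same fits, 33.3% were called higher and 34.1% lower without shGOLM1 replicate 1. Without shGOLM1 replicate 2 the shares were 20.4% and 24.1%. The counts among the 6 are therefore a description only. Leaving out each library in turn, the log2 difference ran from 0.91 to 1.18 for SLC16A1 and from 0.45 to 0.66 for SLC16A3. It ran from 0.12 to 0.77 for BSG, from -0.44 to -0.077 for LDHB and from -0.25 to 0.24 for CA2. For CA12 it ran from -0.094 to 2.55. The adjusted p over all alternatives ran up to 1 for each. CA2 also turned negative with library totals alone (-0.077) and with no filter on low counts (-0.032), and without shscramble replicate 2 (-0.044). The lower bound for CA9 ran from 594 to 4282 with each library left out and was 2029 with library totals alone.

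Over all genes the number called was 0 in edgeR as planned, with DESeq2's size factors, with library totals alone, with a filter of 5 CPM and limma-voom. It was 192 with no filter, 554 in DESeq2, and 20 to 10290 with each library left out, where fewer libraries also change the spread the fit uses. The replicate numbers are shared between groups, and deviations of same-numbered libraries correlated at -0.0977 across genes. That check has a single difference per group, and the gap between the shGOLM1 libraries could hide a shared batch. Whether the libraries are paired is therefore not known. With a replicate block 203 genes were called and none of the 6. At this depth CA9 in shscramble is limited only to at most 3 counts per library, for counting error alone.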
